A study of Mus musculus with 6 samples.

Results

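The effect of low oxygen on the miRNAs of mProx24 cells, which are cultured epithelial cells of the mouse renal proximal tubule, was read from 6 one-colour Agilent arrays, 3 from cultures at 1% oxygen and 3 from cultures at 20% oxygen. These are all 6 arrays of the series, and the sides were set by the oxygen level in the labels. The Hypoxia culture had 12 h at 1% oxygen and no other stimulus. The Triple stimuli culture had 1% oxygen for 12 h together with high glucose and palmitate, a saturated fatty acid, at 150 µM with 0.15% albumin for 9 h. The Triple stimuli + Rapamycin culture had the same and, before it, 12 h of rapamycin, a drug that inhibits the mTORC1 kinase complex, at 0.4 µg/ml. At 20% oxygen, the Control culture had no stimulus, the High glucose culture had high glucose, and the High FFAs culture had palmitate with albumin at the dose and time above. All 6 cultures were of the same cell line, and 100 ng RNA of each was labelled.

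Each side therefore holds 3 different treatments and not 3 cultures of 1 treatment. Rapamycin was used at 1% oxygen only. The labels do not say that the cultures were grown separately, so p-values measure the spread between these arrays. All 6 arrays lay on 1 slide, with the 1% arrays in the second row and the 20% arrays in the first, so oxygen and slide row cannot be told apart. The array design holds 1247 mouse miRNAs. At least 1 array detected 198 of them, and all 6 detected 154. A miRNA counted as detected where at least 0.5 of the spots of 1 of its probes were well above background. Detected miRNAs numbered 172, 183 and 193 in Hypoxia, Triple stimuli and Triple stimuli + Rapamycin, against 164, 189 and 162 in Control, High glucose and High FFAs. Of 16 kidney epithelial miRNAs, the 5 tested members of the miR-30 family, miR-10a-5p and miR-10b-5p were detected on all 6 arrays, and the other 9, including miR-192-5p, miR-194-5p, miR-204-5p and the miR-200 family, on none. None of 6 blood, 2 endothelial and 5 fibroblast or smooth muscle miRNAs was detected on any array. Of 6 muscle, neuron and hepatocyte miRNAs, the muscle miRNA miR-206-3p was detected on all 6 arrays and the other 5 on none.

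miRNAs are short RNAs that guide Argonaute proteins to messenger RNAs, mainly through the seed near their 5′ end, and lower the output of those messengers. Cells sense low oxygen through the hypoxia-inducible factors, HIF, which are degraded when oxygen is ample and switch on target genes when it is scarce. miR-210 is a HIF target induced by low oxygen in many cell types, and it represses Iscu, a scaffold for iron-sulphur clusters, and with it mitochondrial respiration.

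The sequences below are those of both arms of the miR-210 hairpin and of miR-322-5p with the 3 detected miRNAs that share its seed. They are printed 5′ to 3′ from RefSeq for mouse build GRCm38.p6, with the seed, bases 2 to 8, in capitals. miR-210-3p lies at chr7:141221407-141221428 and miR-210-5p at chr7:141221445-141221466, both on the minus strand. miR-322-5p lies at chrX:53054306-53054327, also on the minus strand.
miR-210-3p: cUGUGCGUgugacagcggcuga
miR-210-5p: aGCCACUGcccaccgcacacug
miR-322-5p: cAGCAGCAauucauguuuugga
miR-15a-5p: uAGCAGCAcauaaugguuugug
miR-15b-5p: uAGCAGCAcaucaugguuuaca
miR-16-5p: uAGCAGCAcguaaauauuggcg

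miR-210-3p had scaled signals of 260.4 (Hypoxia), 219.2 (Triple stimuli) and 205.9 (Triple stimuli + Rapamycin) at 1% oxygen, against 24.7 in Control, 24.1 in High glucose and 21.2 in High FFAs. The 3 arrays at 1% oxygen lay far above the 3 at 20%, and the sides did not overlap. On the log2 scale it averaged 7.83 ± 0.18 at 1% oxygen and 4.59 ± 0.045 at 20% (SD, n = 3 each), a difference of 3.24 with a standard error of 0.10, or 9.47-fold. It rose with an adjusted p of 8.34e-06 in limma's moderated test with Benjamini-Hochberg adjustment over the 198 miRNAs, and higher values stood on 3 of 3 arrays. The two-sided exact permutation test over the 6 arrays gave p = 0.1, the smallest that 3 against 3 allows.

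The 1% arrays were also set singly against the mean of the 20% arrays. Hypoxia, in which oxygen was the only stimulus, stood 10.8-fold above that mean. Triple stimuli stood 9.13-fold above it, and Triple stimuli + Rapamycin stood 8.58-fold above it. With 1 array for each condition, the order of these 3 folds has no replicate check.

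The fold of miR-210-3p has a weak denominator. It was detected on 3 of 3 arrays at 1% oxygen and on 1 of 3 at 20%, High glucose. High FFAs lay below the lowest detected signal of its array and was set to that floor. The scanner software's own rule called it detected on all 6 arrays, with summed signals of 108.0 to 130.4 at 1% oxygen and 9.57 to 12.3 at 20%. Without a floor, on the log2(value + 1) scale, the difference was 3.23. Correcting the background with normexp and an offset of 50 gave 1.66. Over the 25 alternatives that tested it the difference ran from 1.66 to 3.57, with adjusted p of at most 0.00207. The filter that keeps only miRNAs detected on all 6 arrays leaves miR-210-3p out, and no miRNA was then called.

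Both probes for miR-210-3p showed the difference. They are the DNA sequences printed here, 16 and 15 bases long, and the capital marks the 1 base at the 3′ end that the longer probe has and the shorter does not.
Longer probe: tcagccgctgtcacaC
Shorter probe: tcagccgctgtcaca
Each pairs over its whole length with the 3′ end of the mature sequence, from base 7 for the longer probe and from base 8 for the shorter. The longer probe ran from 205.9 to 260.4 at 1% oxygen and from 21.2 to 24.7 at 20%. The shorter probe ran from 145.3 to 204.7 at 1% oxygen and from 14.7 to 17.96 at 20%. The probes overlap in sequence and were read on the same arrays, so they are not separate replicates.

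The opposite arm, miR-210-5p, was not detected on any array by the share of spots and was not among the 198 tested. Its longer probe had scaled signals of 16.8 (Hypoxia), 10.2 (Triple stimuli) and 8.31 (Triple stimuli + Rapamycin), against 0.22 in Control, 2.14 in High glucose and -0.81 in High FFAs. The sides did not overlap, and the exact permutation test gave p = 0.1, again the smallest possible. The software's own rule called this arm detected in Hypoxia alone.

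**Figure D1:**
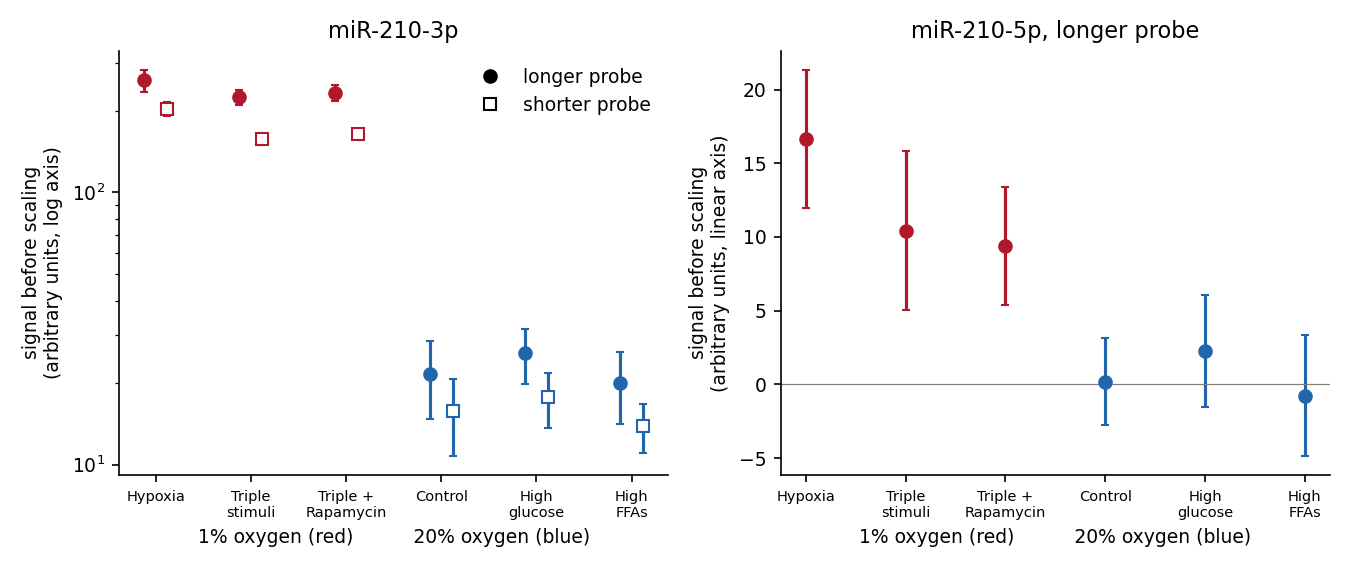
Signal of the 2 miR-210-3p probes (left, log axis) and of the longer miR-210-5p probe (right, linear axis) on each array, before scaling between arrays, in arbitrary units, with 1% oxygen in red and 20% in blue. Points are means over spots and bars their SD; both miR-210-3p probes sit about an order of magnitude higher on the 1% arrays.

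Across all 198 miRNAs, miR-210-3p was the only one called by limma, at an adjusted p under 0.05 (1 higher, 0.505%, and 0 lower). At an unadjusted p under 0.05, 10 miRNAs passed, or 5.05%. It was also the only miRNA that differed by 1.5-fold or more. The median difference over the 198 was -0.032 on the log2 scale. Among the 154 miRNAs detected on all 6 arrays, differences ran from -0.46 for miR-712-5p to 0.39 for miR-5126, with 63 above 0 and 91 below. The median 95% interval of a miRNA, not adjusted for the number tested, reached 0.23 to either side, or 1.17-fold. Changes in single miRNAs below that were mostly not detectable with these arrays. Larger ones could also miss the adjusted threshold, as did miR-350-3p at 0.37 and miR-712-5p at -0.46 (limma adjusted p of 0.294 and 0.673).

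**Figure D2:**
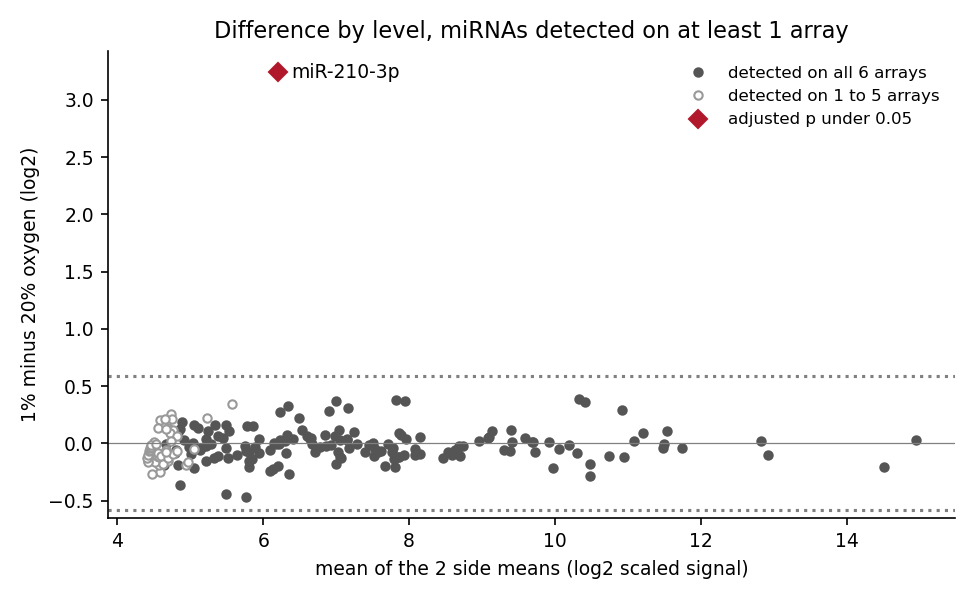
Difference between the side means (1% minus 20% oxygen, log2) against the mean level (log2 scaled signal) for the 198 miRNAs, with dotted lines at 1.5-fold. miR-210-3p lies at 3.24 and every other miRNA lies between the dotted lines.

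The 9 miRNAs with the next lowest p after miR-210-3p did not pass the adjusted threshold, and their values follow as a description. Picking by p favours sides that do not overlap, which 24 of the 198 miRNAs (12.1%) had. miR-350-3p had signals of 148.6, 150.2 and 135.9 in Hypoxia, Triple stimuli and Triple stimuli + Rapamycin, against 118.7, 112.0 and 106.1 in Control, High glucose and High FFAs. Each 1% array was above each 20% array, with a difference of 0.37 (standard error 0.078, limma adjusted p = 0.294). miR-322-5p, the mouse counterpart of human miR-424, which targets the HIF-degrading ligase subunit CUL2 in human endothelial cells, had 99.7, 90.7 and 81.9 in the 1% arrays in that order, against 74.9, 71.1 and 70.3 in the 20% arrays. Its sides did not overlap either, with a difference of 0.33 (standard error 0.090, limma adjusted p = 0.524). Both detected probes of each of these miRNAs kept the sides apart.

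Lower values at 1% oxygen stood in miR-345-5p, with 74.8, 71.7 and 76.7 in Hypoxia, Triple stimuli and Triple stimuli + Rapamycin, against 91.7, 83.6 and 93.4 in Control, High glucose and High FFAs. miR-324-5p had 24.8, 27.2 and 24.5 in the 1% arrays, against 31.4, 38.2 and 29.4 in the 20% arrays. miR-712-5p, which is cut from precursor ribosomal RNA in mouse, had 46.9, 58.0 and 36.1 in the 1% arrays, against 67.0, 62.1 and 62.0 in the 20% arrays. The sides of all 3 did not overlap, with differences of -0.27, -0.37 and -0.46 and limma adjusted p of 0.524, 0.575 and 0.673. These are values of the brightest probe. The dimmer probe of miR-345-5p, detected on 5 arrays, had overlapping sides (-0.058). Those detected for miR-324-5p and miR-712-5p kept the sides apart. miR-28a-5p (0.26), miR-224-5p (0.22), miR-185-5p (-0.19) and miR-744-5p (-0.25) also had sides apart, with limma adjusted p of 0.574 to 0.673. For miR-224-5p, a dimmer probe detected on all 6 arrays kept them apart (0.30). Another detected on all 6 did not (0.094), nor did a probe detected on 2 (0.0052).

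**Figure D3:**
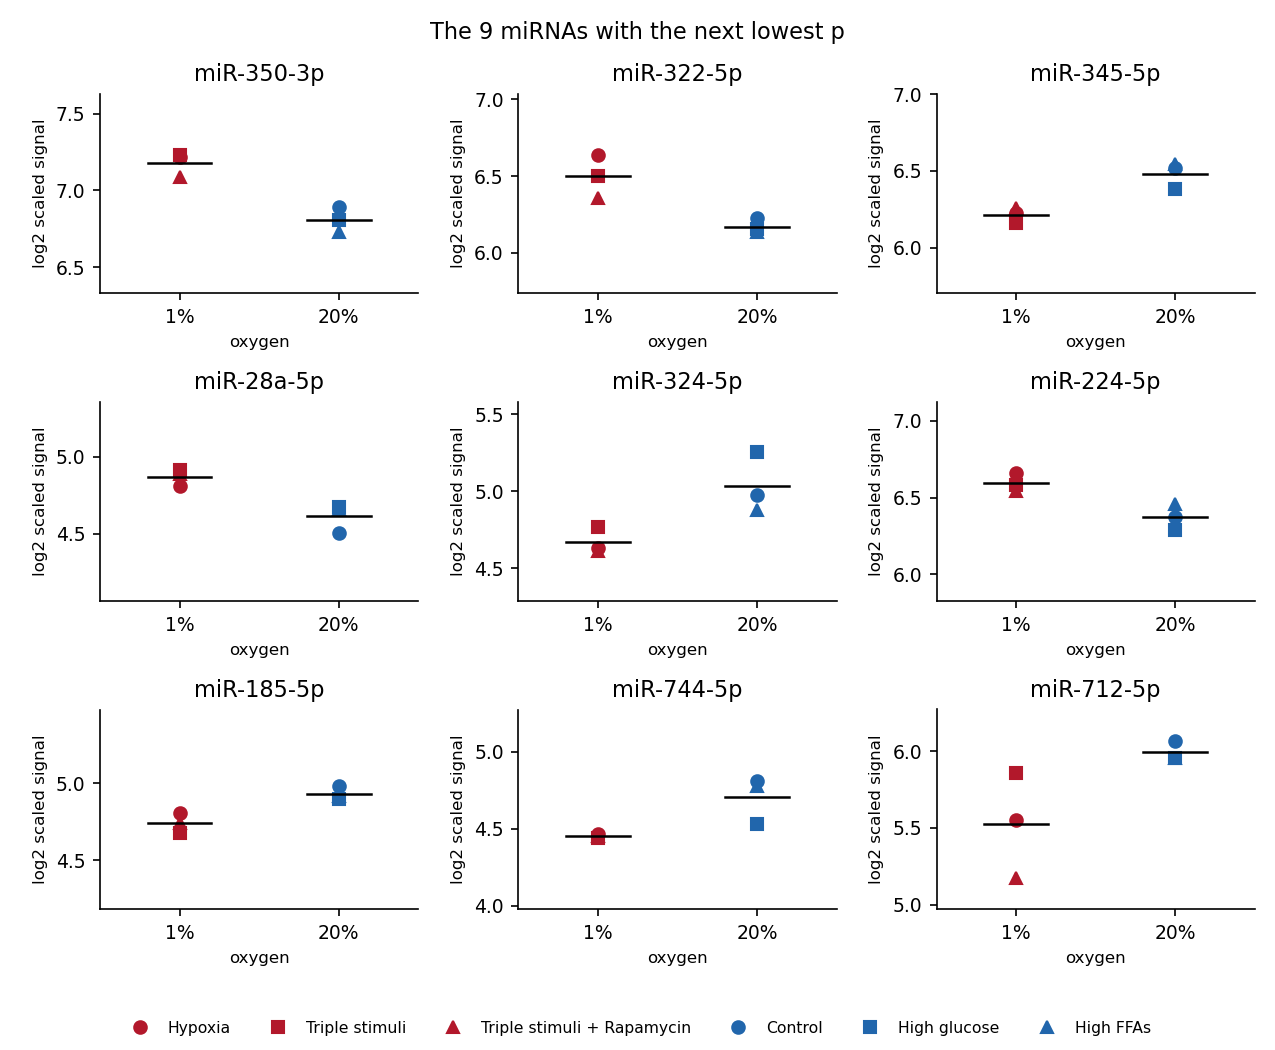
Log2 scaled signal of the miRNAs with the next lowest p after miR-210-3p, 1 point per array, with 1% oxygen left in red and 20% right in blue, bars at the side means and the same height of axis in each panel. The 2 sides do not overlap in any panel, and none of these miRNAs passed the adjusted threshold. They were picked by low p, which favours sides that do not overlap, as 24 of the 198 miRNAs (12.1%) had.

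In all, 24 of the 198 miRNAs (12.1%) had sides that did not overlap, 7 higher (3.54%) and 17 lower (8.59%). With 3 arrays a side, a share of 0.1 of all possible orders of the arrays keeps the sides apart. Floored values are in these counts, and the floor was lower on average at 1% oxygen. A probe at the floor on all 6 arrays had a log2 mean of 4.34 at 1% and 4.47 at 20%, a difference of -0.13. The 17 lower include 1 whose only signal above the floor was in High glucose, and whose signals before flooring overlapped. Among the 154 detected on all 6 arrays, 4 were higher (2.6%) and 13 lower (8.44%). This split hangs on the scaling. Without scaling it was 18 higher and 0 lower, with spike-in scaling 45 and 0, and with scaling to the median 4 and 27. Of the 9 let-7 miRNAs, a list added after the values were seen, 5 had sides that did not overlap and all 5 were lower. Of these 9, 8 had a difference below 0 in the scaling used here, and 0 had one without scaling or with spike-in scaling.

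A fit with glucose, palmitate and rapamycin as further terms called 6 miRNAs higher and 5 lower. miR-350-3p and miR-322-5p were among them, each with a limma adjusted p of 0.0269 there. That fit has 1 residual degree of freedom, and limma then gave nearly the same spread to every miRNA. Over the 26 alternatives, miR-350-3p and miR-322-5p kept a difference above 0 in all and passed in this fit alone. The 26 count it in 2 forms, 1 with the glucose and palmitate labels exchanged. Both forms are the same fit for oxygen and had to give the same values. The 26 also hold changes of filter, limma's trend option and the slide column as a block. These leave each difference as it is in the main setting, so they could not turn its sign.

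The seed of miR-322-5p, AGCAGCA, is shared with 9 other RefSeq miRNAs, of which 3 were detected. Their differences were -0.0069 for miR-15a-5p, 0.014 for miR-15b-5p and 0.044 for miR-16-5p, against 0.33 for miR-322-5p. The differences between these members were not tested. Within 10000 bases of the Mir322 hairpin on chromosome X, RefSeq lists 6 hairpins in all. All 11 of their miRNAs are on the array, and miR-322-5p was the only one detected. No other miRNA in RefSeq has the seed of miR-210-3p, UGUGCGU.

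Of 20 miRNAs known as induced by HIF or low oxygen in other cells, 16 were tested, 1 rose (miR-210-3p) and 0 fell, where 0.505% of all miRNAs were called. Without miR-210-3p the median difference of the list was -0.010, beside -0.032 over all 198, and it was 0.12 without scaling and 0.15 with spike-in scaling. The others ran from -0.22 for miR-181b-5p to 0.33 for miR-322-5p. miR-21a-5p, abundant in injured kidney epithelium, had 2998, 3306 and 2914 in Hypoxia, Triple stimuli and Triple stimuli + Rapamycin, against 2728, 3251 and 2588 in Control, High glucose and High FFAs, and its sides overlapped (difference 0.11, 95% interval -0.15 to 0.37). miR-181b-5p had 35.2, 29.9 and 27.7 in the 1% arrays, against 40.7, 31.0 and 36.4 in the 20% arrays, also overlapping. miR-210-5p, miR-181c-5p, miR-322-3p and miR-503-5p were not detected.

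**Figure D4:**
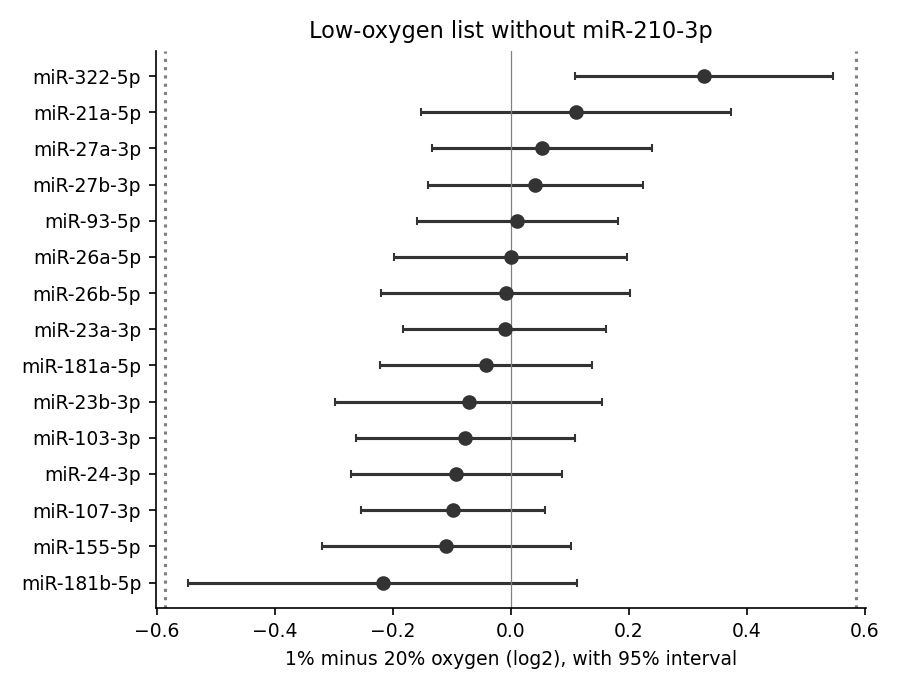
Difference (1% minus 20% oxygen, log2) with its 95% interval for the 15 tested miRNAs of the low-oxygen list other than miR-210-3p, which lies off the axis at 3.24. Dotted lines mark 1.5-fold, and the interval of miR-322-5p is the only one that does not include 0.

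No member of the other lists was called. The 7 tested miRNAs that target Hif1a or Vegfa messengers in other cells had a median of -0.040, 2 above 0 and 5 below. The 7 tested kidney epithelial miRNAs had a median of -0.11, 2 above 0 and 5 below, and the lowest were miR-30e-5p at -0.20 and miR-30c-5p at -0.19. The 4 tested fibrosis and collagen miRNAs had a median of 0.038, 3 above 0 and 1 below. The 1 below was miR-29b-3p, which targets collagen messengers. It had 227.7, 233.3 and 168.1 in the 1% arrays against 235.8, 242.0 and 240.8 in the 20% arrays. The 6 tested mTOR pathway miRNAs had a median of -0.021. The only tested p53 target, miR-34a-5p, had 0.025. A list of 14 entries, drawn up for those that derive from precursor ribosomal RNA or are GC-rich, had a median of 0.19, 9 above 0 and 5 below. It also holds miR-350-3p (0.37), whose RefSeq sequence is not GC-rich, so its name does not cover every member. The signs of these medians hang on the scaling. Without scaling the kidney epithelial median was 0.023, the Hif1a or Vegfa median 0.090 and the mTOR pathway median 0.11, and with spike-in scaling they were 0.051, 0.12 and 0.14. Scaled to the median, the fibrosis and collagen list had -0.033 and miR-34a-5p -0.046. With 1 array left out, the median of the ribosomal or GC-rich list ran from -0.038 without Control to 0.39 without High glucose. With glucose, palmitate and rapamycin as terms it was -0.22. With glucose alone as a term it was -0.19, and 0.18 with the glucose and palmitate labels exchanged. The Hif1a or Vegfa median was 0.012 without Hypoxia, and the fibrosis and collagen median was -0.019 without Control.

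Of the miRNAs detected on all 3 arrays of 1 side, 7 were detected on just 1 array of the other. miR-100-5p, miR-140-5p, miR-1982-5p, miR-210-3p, miR-466q and miR-532-3p were detected on all 3 arrays at 1% oxygen and on 1 at 20%, and miR-744-5p on 1 array at 1% and on all 3 at 20%. Apart from miR-210-3p these miRNAs lay near the floor, with differences of 0.13 for miR-100-5p, 0.095 for miR-140-5p, -0.072 for miR-1982-5p, -0.16 for miR-466q and -0.11 for miR-532-3p. No miRNA was detected on all 3 arrays of 1 side and on none of the other.

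The spread within a side set the limit for several abundant entries. Over the 154 miRNAs the median SD within a side was 0.12, and the median size of the difference was 0.078. miR-5126 had 782, 1615 and 2501 in Hypoxia, Triple stimuli and Triple stimuli + Rapamycin, against 616, 3566 and 641 in Control, High glucose and High FFAs. miR-2861 had 153.5, 306.1 and 468.4 in the 1% arrays, against 123.5, 633.0 and 129.9 in the 20% arrays. Both were high on the 3 arrays whose scanner files are labelled with high glucose and low on the other 3, on either side of the oxygen contrast. In the authors' deposited value table the High glucose and High FFAs columns are exchanged relative to these files, and under that labelling the 3 high arrays would be those with palmitate. Which labelling is right is not settled here. Their SD within a side was 1.19 and 1.11, and their differences of 0.39 and 0.37 had standard errors of 0.78 and 0.73. Across 128 of the 154 miRNAs with a RefSeq sequence, GC content and the SD within a side had a Pearson r of 0.69 and a Spearman rho of 0.49, a description across miRNAs that share the same 6 arrays.

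**Figure D5:**
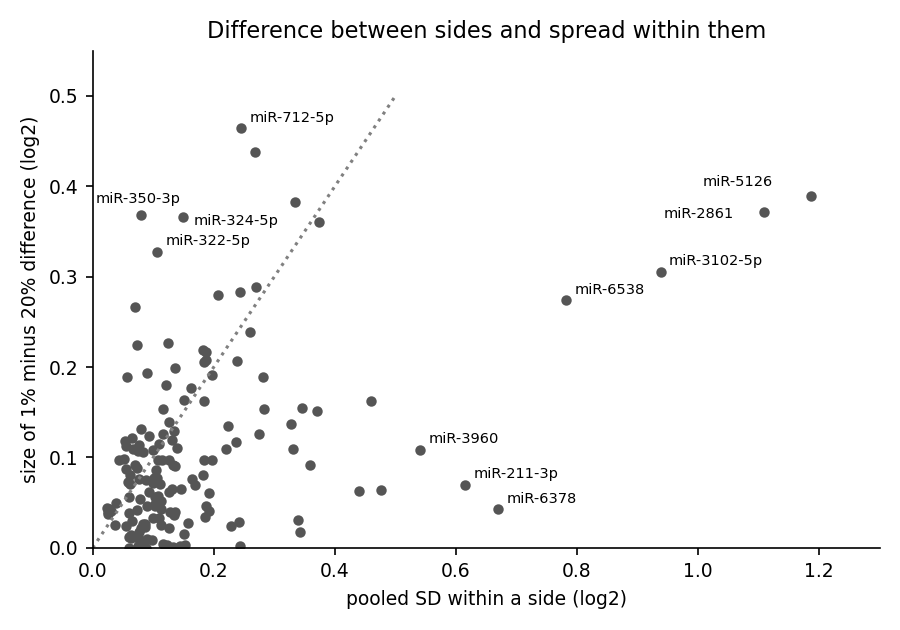
Size of the difference between the sides (log2) against the pooled SD within a side (log2) for the 154 miRNAs detected on all 6 arrays, with a dotted line where both are equal. miR-5126, miR-2861, miR-3102-5p and miR-6538 have the widest spread. miR-350-3p and miR-322-5p are among the 51 of the 154 that lie left of the line.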

How the data were processed

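Per the file headers, spots were quantified with Agilent Feature Extraction 10.7.3.1; the authors' deposited intensity values in the scanner files are linear, background-subtracted and not normalised between arrays. Each probe was summarised as the mean of its processed spot signals without outlier flags (median 18 spots). Arrays were scaled to the 75th percentile over 281 probes detected on all 6 arrays, floored at the lowest detected signal of each array (17.2 to 23.2), and moved to log2. The brightest of 1 to 4 probes stood for each miRNA. limma 3.58.1 (lmFit, eBayes, two-sided) in R 4.3.3 compared the sides over the 198 miRNAs detected on at least 1 array, with Benjamini-Hochberg adjustment and a threshold of 0.05; the code was tested on simulated data. No spot was saturated. The number of arrays limits the precision.

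The members, lists and filter were chosen with earlier results of these data known. Named miRNAs are both arms of miR-210, those called, the 10 with the lowest p, the 10 largest differences each way among those on all 6 arrays, those detected on 3 arrays of 1 side and at most 1 of the other, list members, and those called by an alternative. RefSeq held 163 of the 198. A separate deposited value table, 1 linear signal per miRNA and array, served as an alternative after log2; its High glucose and High FFAs columns match each other's scanner file (70.9% and 70.6% of miRNAs within 0.1%), and both are 20% arrays. The sources used here do not give how the authors scaled the value table.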

Additional observations from a re-analysis of the deposited data

How the results depend on the processing

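Changing only the filter, using limma's trend option or adding the slide column as a block could not change a difference. miR-210-3p kept its direction and its call in all 25 alternatives that tested it. The count of miRNAs called was 1 higher and 0 lower in the other alternatives, except 0 higher with only miRNAs detected on all 6 arrays, which leaves miR-210-3p out (7 passed an unadjusted p under 0.05 there), and 6 higher and 5 lower with glucose, palmitate and rapamycin as terms. The 11 called there were miR-210-3p, miR-5100 (0.61), miR-5097 (0.58), miR-3968 (0.45), miR-322-5p (0.42) and miR-350-3p (0.42), and miR-290-5p (-0.54), miR-721 (-0.50), miR-709 (-0.46), miR-680 (-0.45) and miR-714 (-0.43). Exchanging the glucose and palmitate labels, an alternative chosen, like the single floor, after seeing the data, only swaps the names of 2 terms in this fit. It could not change these counts and values, so it is no separate check of them. miRNAs with sides that do not overlap numbered 7 higher and 17 lower in the main setting. They numbered 3 higher with the percentile over all probes, 4 higher and 27 lower with the median, and 18 and 0 without scaling. The counts were 45 and 0 with spike-ins, 4 higher with normexp, and 22 and 2 with summed signals. They were 8 lower with quantiles, 6 lower with the deposited table, and 4 higher and 13 lower with the 154 miRNAs on all 6 arrays. Where only 1 direction is given, the other is not shown here. With 1 array left out the counts were 7 to 21 higher and 20 to 48 lower. Fewer arrays part more easily, so those counts do not compare directly with the main setting. The median of all miRNAs was -0.032 in the main setting, 0.099 without scaling, 0.13 with spike-ins, 0.066 with summed signals, -0.097 with the percentile over all probes and -0.10 with the median. With 1 array left out it ran from -0.064 without Triple stimuli to 0.0026 without Hypoxia.

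Of 1834 values for 71 other named miRNAs, 214 had the opposite sign, in 48 miRNAs. The 1834 include values from settings that could not change a difference. The values of opposite sign of the single miRNAs given with a value follow, and the cause was not tested. With the percentile over all probes, miR-15b-5p was -0.052, miR-16-5p -0.021 and miR-34a-5p -0.040, and with the median -0.057, -0.027 and -0.046. Without scaling, miR-15a-5p was 0.12, miR-532-3p 0.023, miR-1982-5p 0.059 and miR-680 0.086, and with spike-ins 0.15, 0.051, 0.086 and 0.11. With normexp, miR-28a-5p was -0.0082, miR-100-5p -0.042 and miR-140-5p -0.061. With the mean of all probes, miR-15a-5p was 0.044, miR-15b-5p -0.012 and miR-140-5p -0.044. With summed signals, miR-15a-5p was 0.13, miR-1982-5p 0.096, miR-290-5p 0.54, miR-721 0.43 and miR-680 0.21, and with the deposited values 0.055, 0.025, 0.63, 0.54 and 0.75. With log2(value + 1), miR-290-5p was 0.52, miR-721 0.33 and miR-680 0.16. With all 3 terms, in both labellings, miR-2861 was -0.22, miR-5126 -0.23, miR-3102-5p -0.13, miR-6538 -0.22 and miR-15a-5p 0.029. With glucose alone as a term, miR-2861 was -0.23, miR-5126 -0.26, miR-3102-5p -0.19 and miR-6538 -0.17, and with labels exchanged miR-15a-5p was 0.021 and miR-15b-5p -0.016. With 1 array left out, values ran from -0.033 to 1.15 for miR-2861, -0.043 to 1.22 for miR-5126, -0.059 to 1.00 for miR-3102-5p, -0.028 to 0.76 for miR-6538, -0.060 to 0.032 for miR-15a-5p, -0.024 to 0.060 for miR-15b-5p, -0.16 to 0.030 for miR-1982-5p, -0.45 to 0.33 for miR-290-5p, -0.43 to 0.37 for miR-721 and -0.33 to 0.50 for miR-680. The labels give no replicate numbers that could pair the arrays. Each slide column held 1 array of each side, so a block for column could not change the difference of 3.24 for miR-210-3p. With that block its limma adjusted p was 0.000172, and it was again the only miRNA called. Low signal limits miRNAs near the floor, which includes miR-210-3p at 20% oxygen.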
